A study of Mus musculus with 9 samples.

Results

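The comparison described here set one line of edited mouse mammary epithelial cells, *KD1*, against its parental HC11 line, *WT*, by RNA-seq. The members were chosen by the labels of the count columns, 3 cultures of *KD1* and 3 of *WT*, which made 6 of the 9 cultures of the series. HC11 is an immortalised line that was derived from mammary gland of a BALB/c mouse and can be induced to make milk proteins. *KD1* is a single clone made by CRISPR/Cas9 editing of *Vangl2* with guide 1 and a repair template that carried stop codons, and the labels call it a *Vangl2* knockout. The other 3 cultures, *KD2*, are a clone made with a second guide. Cells of each line were undifferentiated and received no treatment, and all were kept in RPMI that held serum (10% FBS) and EGF (10 ng/mL), with insulin added at 5 µg/mL. No clone of HC11 cells that went through editing without a guide was analysed here, so a difference due to the edit and a difference due to the choice of 1 cell cannot be told apart. Nothing in the labels says that the 3 cultures of a line came from separate experiments, so p-values measure the spread between these cultures, which may be technical.

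VANGL2 is a transmembrane protein of planar cell polarity (PCP), the system that orients epithelial cells within the plane of a sheet and that works through CELSR, Frizzled, Dishevelled and Prickle proteins. In the mammary gland the basal and luminal epithelial layers rest on a laminin-rich basement membrane, and prolactin acting through JAK2 and STAT5 drives the luminal cells to make milk. Epithelial cells of many tissues also carry an innate defence program. Interferons act through STAT and IRF factors on antiviral genes, and interleukin 1 and NF-κB act on chemokine genes.

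Levels are given as CPM, the read count relative to the TMM-scaled library size, and as mean ± SD over 3 cultures where a mean is given. A gene was called when the quasi-likelihood test of edgeR, fitted on all 9 cultures, gave a Benjamini-Hochberg adjusted p under 0.05 over 15253 genes and a log2 fold change beyond 1 in either direction. Fold changes are *KD1* over *WT* on the log2 scale, with SE. The filter on low counts kept a gene that was high enough in any of the lines. A gene low in *WT* and *KD2* was tested only because *KD1* was high, and a gene low in *KD1* and *KD2* only because *WT* was high. The direction of such a gene was fixed by the filter, and its p-value is no support. Not every such gene is marked where it is named. A gene low in *KD1* and high in *KD2* was tested whatever its level in *WT*. Where all 3 cultures of a line held 3 counts or fewer, the change is given as a lower bound against 3 counts per library. Where the value of each culture is listed for a called gene, the *WT* and *KD1* ranges did not overlap.

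Depth was 20030410 to 25505223 counts in *WT* and 25514438 to 27896032 in *KD1*. The 3 *KD1* cultures were close to each other, with a chi-square per degree of freedom of 1.37 to 1.81 between pairs, and *WT* replicate 1 stood apart from the other *WT* cultures, at 10.7 and 13.1 against 3.38 between the other pair. The cells carried epithelial markers in both lines. The summed level of 11 epithelial markers was 5519 to 6048 CPM in *WT* and 5937 to 6084 CPM in *KD1*, with *Krt19* at 0 counts throughout. Markers of myoepithelium summed to 7.84 to 9.92 CPM in *WT* and 0.686 to 0.747 CPM in *KD1*, nearly all of it *Oxtr* in *WT*, and *Myocd* was at 0. Adipocyte markers stayed under 0.787 CPM in every culture.

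At these limits 1425 genes were called higher and 1143 lower in *KD1*, which was 9.34% and 7.49% of the genes tested and 16.8% together. With the adjusted p alone, 26.9% were higher and 30% lower, and the median log2 fold change of all genes tested was -0.03. Shares of a gene list are to be read against these values. In these bulk libraries fewer cells that express a gene and less RNA of it per cell cannot be told apart.

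**Figure D1:**
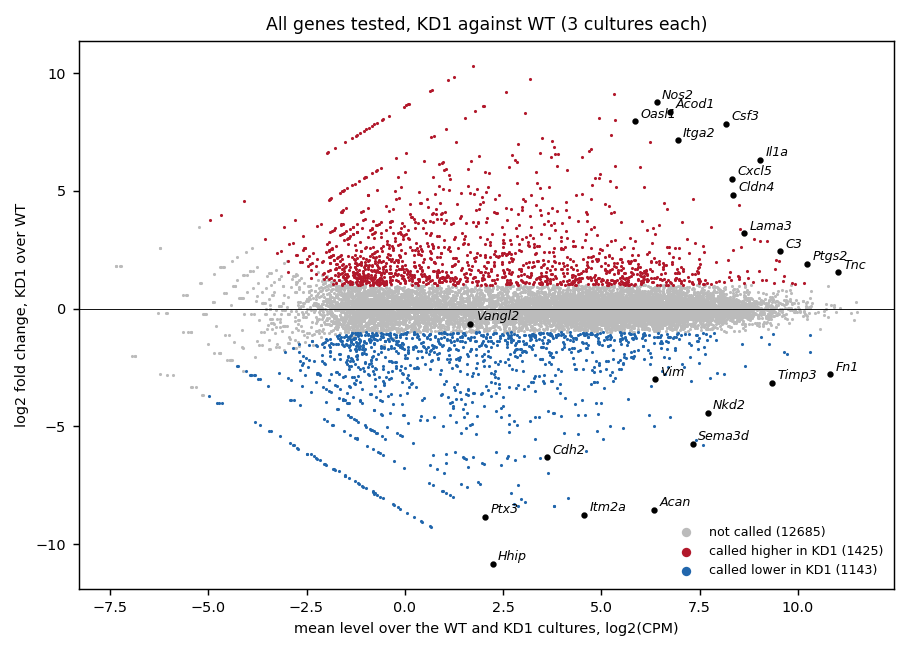
Each point is 1 gene tested, with its mean level over the *WT* and *KD1* cultures on the x axis (log2 CPM) and its log2 fold change on the y axis. Red and blue mark the 1425 genes called higher and the 1143 called lower, and black points with names mark genes described in the text. Genes with no count in these 6 cultures are not drawn. *Nos2*, *Acod1*, *Csf3* and *Il1a* lie far above 0 at high levels, *Hhip*, *Ptx3*, *Itm2a* and *Acan* far below it, and *Vangl2* lies close to 0.

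The edited gene itself was low in both lines. *Vangl2* (ENSMUSG00000026556) is annotated (GRCm38) at chr1:172000960-172028444 and is transcribed from the minus strand. It had 66, 99 and 86 counts in *WT* and 75, 48 and 69 counts in *KD1*, or 3.38, 3.96 and 4.20 CPM in *WT* and 2.77, 1.89 and 2.78 CPM in *KD1*. In CPM, all *KD1* cultures were below all *WT* cultures, and the difference was under the fold limit (log2 fold change -0.63 ± 0.17, edgeR adjusted p = 0.00581). A transcript count does not show whether the edited allele can make protein, because a stop codon may leave the RNA in place. The related *Vangl1* passed the adjusted p alone, at 54.7 ± 2.18 CPM in *WT* and 82.4 ± 2.30 CPM in *KD1* (log2 fold change 0.59 ± 0.06, edgeR adjusted p = 8.5e-07).

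Of the planar cell polarity genes, 30 were tested, 4 were called higher and 4 lower, with a median of -0.00019. The most changed cytoplasmic members were Prickle genes. *Prickle2* rose from 2.71 ± 0.487 to 16.8 ± 1.65 CPM (log2 fold change 2.62 ± 0.14, edgeR adjusted p = 2.2e-09), whereas *Prickle3* fell from 4.89 ± 0.307 to 1.20 ± 0.333 CPM (log2 fold change -2.02 ± 0.19, edgeR adjusted p = 5.8e-07). Among the large atypical cadherins of the pathway, *Celsr1* fell from 12.4 ± 2.66 to 4.60 ± 0.281 CPM (log2 fold change -1.44 ± 0.14, edgeR adjusted p = 1.1e-06), and *Fat4*, the partner of Dachsous cadherins, fell from 2.52 ± 0.564 to 0.0916 ± 0.0609 CPM (log2 fold change -4.74 ± 0.34, edgeR adjusted p = 3.5e-08). *Ror1*, a receptor for WNT5A, rose from 0.678 ± 0.0912 to 2.34 ± 0.0214 CPM (log2 fold change 1.78 ± 0.22), and *Fjx1*, a kinase related to Four-jointed, rose from 4.00 ± 0.576 to 8.74 ± 0.435 CPM (log2 fold change 1.13 ± 0.13). The receptor *Fzd6* was at 154 ± 6.47 CPM in *WT* and 142 ± 2.74 CPM in *KD1* (edgeR adjusted p = 0.179). *Dvl2* and *Prickle1* passed the adjusted p alone, with log2 fold changes of 0.52 ± 0.09 and 0.86 ± 0.06.

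The interferon response had the highest median of the 35 gene lists described here. Of 64 interferon-stimulated and IRF genes tested, 40 were called higher and 0 lower, against 9.34% called higher over all genes, and the median log2 fold change was 2.02. By edgeR no member was lower at an unadjusted p under 0.05, and DESeq2 called 0 lower. Motif matches in their RefSeq promoters (GRCm38.p6) describe letters that many of these genes share. The list was drawn up from known interferon-stimulated and IRF genes. A high share of the motif was thus built into it and is no result about *KD1*. The core of the interferon response element, TTCNNTTTC, stood on either strand in the 250 bases before to 50 after the start in 20 of the 34 called members with a promoter entry (58.8%), against 9.76% of all 27025 genes with an entry and 8.46% of the tested ones. The STAT site TTCNNNGAA stood in 6 of the 34 (17.6%), against 9.55% of all genes with an entry. Of all 945 genes called higher in *KD1* with an entry, 12.6% held the core. A match is a description of the letters and not a measured binding site. The stretches below lie upstream of the start, are written 5′ to 3′ on the strand of the gene, and carry the matches in capitals. They were chosen as members with one or more matches that are described here or are textbook members of the response.
Ifit1, chr19:34640765-34640828, plus strand: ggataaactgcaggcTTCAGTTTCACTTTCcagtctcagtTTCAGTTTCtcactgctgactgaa
Isg15, chr4:156200861-156200911, minus strand: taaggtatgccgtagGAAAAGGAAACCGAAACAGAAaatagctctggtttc
Rsad2, chr12:26456548-26456586, minus strand: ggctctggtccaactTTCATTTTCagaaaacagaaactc
Gbp2, chr3:142620590-142620628, plus strand: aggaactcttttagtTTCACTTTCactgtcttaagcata
Igtp, chr11:58199496-58199545, plus strand: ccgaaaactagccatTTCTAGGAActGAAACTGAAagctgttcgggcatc
Irf1, chr11:53769909-53769947, plus strand: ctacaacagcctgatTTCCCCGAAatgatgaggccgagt

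*Ifit1* shows 3 overlapping or neighbouring copies of the core, as does *Isg15*, whereas *Igtp* holds 1 core and 1 STAT site and *Irf1* only a STAT site. All these genes were called higher. *Oasl1*, an antiviral protein related to the oligoadenylate synthetases, was at 0.717, 0.320 and 0.391 CPM in *WT* and 118, 117 and 113 CPM in *KD1* (log2 fold change 7.96 ± 0.13, edgeR adjusted p = 2.7e-14). *Rsad2*, which makes the antiviral nucleotide ddhCTP, was at 0.256, 0.280 and 0.146 CPM in *WT* and 27.9, 27.8 and 26.5 CPM in *KD1* (log2 fold change 6.86 ± 0.16). It did not pass the filter on low counts through *WT*, so its direction may have been fixed by the filter. *Ifit1*, which binds foreign RNA ends, was at 0.717, 0.600 and 0.391 CPM in *WT* and 33.3, 34.4 and 36 CPM in *KD1* (log2 fold change 5.91 ± 0.19, edgeR adjusted p = 6.7e-12). In each of the 3 genes the *WT* cultures were under 1 CPM, and no *KD1* culture overlapped them.

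*Isg15*, the ubiquitin-like modifier, rose from 1.13 ± 0.0943 to 10.3 ± 0.723 CPM (log2 fold change 3.18 ± 0.16, edgeR adjusted p = 8.0e-10). Regulators of the response changed too. *Irf7* rose from 0.368 ± 0.183 to 2.04 ± 0.203 CPM (log2 fold change 2.51 ± 0.28, edgeR adjusted p = 3.2e-06) and *Irf1* rose from 32.3 ± 1.05 to 94.9 ± 1.22 CPM (log2 fold change 1.55 ± 0.07, edgeR adjusted p = 2.4e-10). *Stat2* and *Irf9*, which encode factors that act together on the interferon response element, were below the fold limit. *Stat2* was at 9.39 ± 0.989 CPM in *WT* and 18 ± 0.533 CPM in *KD1* (log2 fold change 0.93 ± 0.09) and *Irf9* at 10.6 ± 0.330 CPM in *WT* and 13.2 ± 0.373 CPM in *KD1* (log2 fold change 0.32 ± 0.09), both with an edgeR adjusted p under 0.05. *Mx1* was at 0.110 ± 0.0338 CPM in *WT* and 0.181 ± 0.0890 CPM in *KD1* and did not pass the test (edgeR adjusted p = 0.327). *Ifit3* and *Ifit3b* share 51.2% and 45% of their windows of 50 bases with each other, so that reads of one can be counted on the other.

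Interferon transcripts themselves were nearly absent. Of 21 genes for type I, II and III interferons in the table, 15 had no count in the 6 cultures, 20 had 3 counts or fewer in every culture, and the highest value in any culture was 5 counts, in *Ifnk*. Sensors and receptors were looked up after the list had been seen. *Tmem173*, which encodes STING, rose from 2.09 ± 0.707 to 15.4 ± 0.602 CPM (log2 fold change 2.84 ± 0.17, edgeR adjusted p = 5.8e-09), with *WT* replicate 2 above the other *WT* cultures. *Ifih1*, which encodes the RNA sensor MDA5, rose from 6.36 ± 0.802 to 28.8 ± 1.61 CPM (log2 fold change 2.19 ± 0.11, edgeR adjusted p = 5.2e-10). *Ifngr2*, a chain of the receptor for interferon gamma, rose from 40.4 ± 2.73 to 95.8 ± 3.05 CPM (log2 fold change 1.24 ± 0.06, edgeR adjusted p = 9.2e-10). The other chain, *Ifngr1*, was lower by the adjusted p alone, at 50.8 ± 2.57 CPM in *WT* and 29.7 ± 0.854 CPM in *KD1* (log2 fold change -0.77 ± 0.06, edgeR adjusted p = 1.1e-07). The receptor genes *Ifnar1*, *Ifnar2* and *Ifnlr1* were not called (log2 fold changes 0.21 ± 0.06, 0.98 ± 0.08 and 0.05 ± 0.10). *Tlr3* was at 90.6 ± 0.729 CPM in *WT* and 91.8 ± 0.900 CPM in *KD1* (edgeR adjusted p = 0.903).

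Antigen presentation genes moved by smaller amounts in the same direction. Of 23 tested, 10 were called higher and 0 lower, with 0 lower at an unadjusted p under 0.05 in edgeR and 0 called lower by DESeq2. Of these genes 22 passed the adjusted p alone as higher against 26.9% of all genes, and the median was 0.86. *Tap1* and *Tap2*, the peptide transporter of the endoplasmic reticulum, rose from 3.11 ± 0.313 to 6.72 ± 0.364 CPM and from 6.14 ± 0.553 to 17.9 ± 0.450 CPM (log2 fold changes 1.10 ± 0.12 and 1.54 ± 0.11). *Psmb9*, a subunit of the immunoproteasome, rose from 0.230 ± 0.0216 to 1.40 ± 0.287 CPM (log2 fold change 2.57 ± 0.36, edgeR adjusted p = 3.4e-05). *Psmb8*, another subunit, was at 0.0888 ± 0.0781 CPM in *WT* and 0.0635 ± 0.0410 CPM in *KD1* and did not pass the test (edgeR adjusted p = 0.683). The class I genes *H2-K1* (19 ± 0.151 CPM in *WT* and 31.6 ± 0.884 CPM in *KD1*; log2 fold change 0.74 ± 0.09) and *B2m* (119 ± 4.75 CPM in *WT* and 174 ± 4.52 CPM in *KD1*; log2 fold change 0.55 ± 0.05) passed the adjusted p and not the fold limit.

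Chemokines, cytokines and NF-κB feedback genes had the next highest median. Of 40 tested, 26 were called higher and 4 lower, with a median of 1.97. *Il1a*, a cytokine that epithelial cells store and release on injury, was at 17.1, 10.6 and 11.3 CPM in *WT* and 1029.6, 1054 and 1009.9 CPM in *KD1* (log2 fold change 6.32 ± 0.14, edgeR adjusted p = 1.5e-13). *Csf3*, the growth factor of granulocytes, was at 3.07, 1.64 and 2.83 CPM in *WT* and 575, 590.3 and 548 CPM in *KD1* (log2 fold change 7.86 ± 0.17, edgeR adjusted p = 1.1e-13). *Cxcl5*, which attracts neutrophils, was at 15.8, 11.4 and 14.4 CPM in *WT* and 627, 659.8 and 603 CPM in *KD1* (log2 fold change 5.51 ± 0.10, edgeR adjusted p = 3.1e-14). For each of the 3 cytokines, *KD1* reached over 500 CPM in every culture while no *WT* culture passed 20 CPM.

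*Cxcl1* and *Cxcl3*, further neutrophil chemokines, rose from 32.9 ± 5.22 to 694 ± 19.9 CPM and from 0.473 ± 0.0417 to 52.6 ± 3.14 CPM (log2 fold changes 4.40 ± 0.11 and 6.77 ± 0.13). *Il6* rose from 2.02 ± 0.117 to 50.9 ± 2.37 CPM (log2 fold change 4.66 ± 0.16, edgeR adjusted p = 1.1e-11). *Csf2* had 0, 0 and 0 counts in *WT* and 55, 51 and 57 counts in *KD1*, a rise of at least 15.1-fold. The inhibitors of NF-κB signalling *Nfkbia* and *Tnfaip3* rose from 46.3 ± 3.22 to 115 ± 1.63 CPM and from 17.7 ± 2.35 to 43.7 ± 1.09 CPM (log2 fold changes 1.32 ± 0.08 and 1.30 ± 0.09), whereas *Nfkb1*, *Nfkb2* and *Relb*, looked up after the list had been seen, passed the adjusted p with log2 fold changes of 0.42 ± 0.05, 0.79 ± 0.07 and 0.50 ± 0.10. *C3*, the central complement component, rose from 232 ± 13.1 to 1254 ± 27.8 CPM (log2 fold change 2.44 ± 0.07, edgeR adjusted p = 2.4e-12), and *Ptgs2*, the inducible cyclooxygenase, rose from 509.6 ± 76 to 1911 ± 35.6 CPM (log2 fold change 1.91 ± 0.12, edgeR adjusted p = 1.2e-08). *C3* and *Ptgs2* were among the 5 genes with the largest gains in CPM.

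The 4 members called lower included *Ptx3*, a soluble pattern recognition protein, with 171, 205 and 159 counts in *WT* and 0, 0 and 1 counts in *KD1*, a fall of at least 70.7-fold. *Cxcl12*, the ligand of CXCR4, fell from 12 ± 0.516 to 4.26 ± 0.422 CPM (log2 fold change -1.49 ± 0.09, edgeR adjusted p = 5.8e-09). *Ccl20* fell from 0.350 ± 0.131 to 0.115 ± 0.0728 CPM (log2 fold change -1.51 ± 0.51, edgeR adjusted p = 0.0220), a call that was lost without *WT* replicate 1 or 3 or *KD1* replicate 2 or 3 (edgeR adjusted p 0.0528 to 0.0943), and the death ligand *Tnfsf10* was the other. Markers of endothelium summed to 2.05 to 2.49 CPM in *WT* and 4.87 to 5.50 CPM in *KD1*, over 5 markers of which *Kdr*, *Emcn* and *Tek* had 3 counts or fewer in every culture. Markers of leukocytes and macrophages summed to 9.88 to 12.4 CPM in *WT* and 18.3 to 20.5 CPM in *KD1*, over 9 markers of which *Cd14* and *Cd68* made up nearly all. *Ptprc*, *Adgre1*, *Lyz2*, *Itgam* and *Tyrobp*, which define those cells, had 3 counts or fewer in every culture. The part of these markers in the chemokine result was not tested.

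*Nos2*, *Acod1* and *Lilr4b* were among the 15 largest rises. *Nos2*, the inducible nitric oxide synthase, was at 0.359, 0.400 and 0.391 CPM in *WT* and 171, 169.5 and 168 CPM in *KD1* (log2 fold change 8.76 ± 0.12, edgeR adjusted p = 7.3e-15). *Acod1*, which makes itaconate, was at 0.717, 0.560 and 0.684 CPM in *WT* and 215, 207 and 223 CPM in *KD1* (log2 fold change 8.37 ± 0.13, edgeR adjusted p = 2.1e-14). *Lilr4b*, a leukocyte receptor, was at 0.102, 0.0800 and 0.244 CPM in *WT* and 85.3, 73.5 and 81.1 CPM in *KD1* (log2 fold change 9.12 ± 0.17). It did not pass the filter on low counts through *WT*, so its direction may have been fixed by the filter. Of its windows of 50 bases, 24.5% occur in other genes. Around *Nos2*, of 23 genes of nitric oxide and arginine metabolism tested, 9 were called higher and 1 lower. The arginine transporter *Slc7a2* rose from 10.2 ± 2.33 to 194 ± 3.14 CPM (log2 fold change 4.25 ± 0.13, edgeR adjusted p = 5.5e-12), *Arg1*, which splits arginine to ornithine, rose from 3.65 ± 0.807 to 8.55 ± 1.37 CPM (log2 fold change 1.22 ± 0.17, edgeR adjusted p = 2.4e-05), and *Prodh*, a proline oxidase, fell from 2.21 ± 0.213 to 0.674 ± 0.0886 CPM (log2 fold change -1.71 ± 0.21).

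Receptors and inhibitors of JAK-STAT signalling changed while neither STAT5 gene was called. Of 30 genes tested, 6 were called higher and 2 lower, with a median of 0.18. *Stat5a* was at 14.3, 17 and 16.1 CPM in *WT* and 14.5, 15.7 and 14.3 CPM in *KD1* (log2 fold change -0.09 ± 0.09, edgeR adjusted p = 0.425), and *Stat5b* at 60.9 ± 2.10 CPM in *WT* and 67.4 ± 1.18 CPM in *KD1* (edgeR adjusted p = 0.0518, and DESeq2 adjusted p = 0.02 at a log2 fold change of 0.17). The *Stat5a* ranges of the lines overlapped. *Stat3* was at 158 ± 9.89 CPM in *WT* and 301 ± 1.88 CPM in *KD1* and *Jak2* at 38.2 ± 1.96 CPM in *WT* and 73.3 ± 1.44 CPM in *KD1*, both higher by the adjusted p and just under the fold limit (log2 fold changes 0.93 ± 0.06 and 0.94 ± 0.08).

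The prolactin receptor *Prlr* was at 10.9, 12.1 and 11.6 CPM in *WT* and 38.8, 39.8 and 39.7 CPM in *KD1* (log2 fold change 1.77 ± 0.12, edgeR adjusted p = 2.6e-08), and the growth hormone receptor *Ghr* rose from 28.6 ± 0.521 to 69.8 ± 1.38 CPM (log2 fold change 1.29 ± 0.09, edgeR adjusted p = 2.4e-08). The feedback inhibitors *Socs3* and *Cish* rose from 63.1 ± 8.62 to 179 ± 6.42 CPM and from 23.4 ± 1.73 to 54.2 ± 1.67 CPM (log2 fold changes 1.50 ± 0.09 and 1.21 ± 0.08), and *Socs2* was at 75.1 ± 3.97 CPM in *WT* and 82.1 ± 3.06 CPM in *KD1* (edgeR adjusted p = 0.0992). The receptors for leukaemia inhibitory factor and oncostatin M moved the other way. *Lifr* fell from 23.5 ± 2.20 to 2.76 ± 0.401 CPM (log2 fold change -3.09 ± 0.12, edgeR adjusted p = 4.9e-11) and *Osmr* fell from 67.4 ± 3.11 to 28.9 ± 1.13 CPM (log2 fold change -1.22 ± 0.08, edgeR adjusted p = 7.6e-09).

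Milk genes were mostly not expressed. Of 27 genes of the milk and STAT5 target list in the table, 16 were tested, 5 were called higher and 0 lower by edgeR, with 2 lower at an unadjusted p under 0.05 and 0 called lower by DESeq2. The median was 0.06. The caseins and whey protein of the differentiated gland stayed at the floor, with 0, 1 and 0 counts in *WT* and 0, 0 and 0 counts in *KD1* for *Csn2* and 0, 0 and 1 counts in *WT* and 0, 0 and 0 counts in *KD1* for *Wap*. The called members were the antimicrobial milk protein *Ltf*, with 0, 1 and 0 counts in *WT* and 34, 24 and 42 counts in *KD1*, the milk fat globule enzyme *Xdh* (from 81 ± 5.66 to 269 ± 4.31 CPM; log2 fold change 1.73 ± 0.06), the gap junction gene *Gjb2* (from 9.04 ± 1.72 to 66.7 ± 0.601 CPM; log2 fold change 2.88 ± 0.10), *Ccnd1* and *Pim1*. *Ltf* passed the filter on low counts through *KD1* alone, so its direction was fixed by the filter, and it raises the count. *Elf5*, a regulator of alveolar cells, was at 0.236 ± 0.0947 CPM in *WT* and 0.509 ± 0.287 CPM in *KD1* (log2 fold change 1.14 ± 0.48, edgeR adjusted p = 0.0579). That value depended on the cultures and the filter, with an edgeR adjusted p of 0.0466 without *WT* replicate 3, 0.0127 without *KD1* replicate 3 and 0.0253 with no filter on low counts, and log2 fold changes of 1.52, 1.47 and 1.15.

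**Figure D2:**
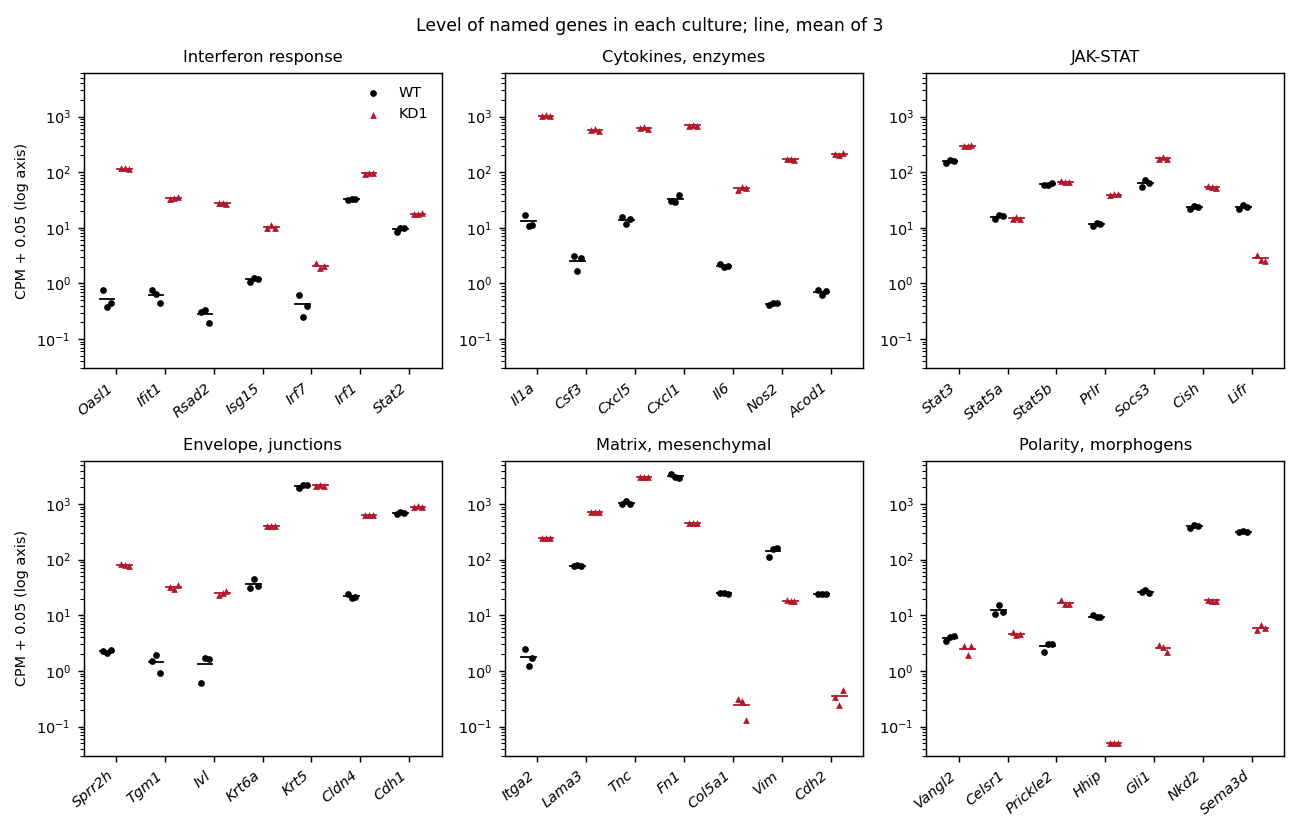
Level of named genes in each culture, as CPM plus 0.05 on a log axis, in 6 panels by role. Black circles are the 3 *WT* cultures, red triangles the 3 *KD1* cultures, and lines their means. The points of the lines stand apart for *Nos2*, *Il1a* and *Hhip*, whereas the *WT* and *KD1* points of *Stat5a* and *Krt5* lie side by side.

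Most tested genes of the cornified envelope list, named for the protein shell of stratified epithelia, were called higher. Of 35 small proline-rich, S100, kallikrein and envelope genes tested, 22 were called higher and 2 lower, with a median of 1.56. The members called higher included *Sprr2d*, *Sprr2e*, *Sprr2f*, *Sprr2a1*, *Sprr2a2*, *S100a9* and *Klk7*. These were low in *WT* and *KD2* and passed the filter on low counts through *KD1*. Their direction was thus fixed by the filter, and they raise the count and the median. *Tgm1*, which cross-links the envelope, was at 1.43, 1.88 and 0.879 CPM in *WT* and 32.6, 30.2 and 35.6 CPM in *KD1* (log2 fold change 4.52 ± 0.19, edgeR adjusted p = 1.1e-10). *Ivl*, which encodes its scaffold involucrin, was at 0.563, 1.68 and 1.56 CPM in *WT* and 23.6, 25.2 and 27.5 CPM in *KD1* (log2 fold change 4.28 ± 0.21, edgeR adjusted p = 5.6e-10), with *WT* replicate 1 below the other *WT* cultures. *Sprr2g* rose from 0.454 ± 0.103 to 75.6 ± 1.64 CPM (log2 fold change 7.39 ± 0.13). It did not pass the filter on low counts through *WT* or *KD2*, so its direction may have been fixed by the filter. *S100a4* and *S100a1* were the members called lower (log2 fold changes -2.21 ± 0.16 and -1.01 ± 0.09), the latter at the limit on the fold and not called without *WT* replicate 2 or 3 or *KD1* replicate 1.

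Keratins of the same epithelium differed in response. The stress and hair follicle keratins *Krt6a*, *Krt6b* and *Krt16* rose from 36.3 ± 6.99 to 405 ± 2.75 CPM, from 5.40 ± 1.25 to 35 ± 0.910 CPM and from 29.6 ± 2.45 to 81.6 ± 3.15 CPM (log2 fold changes 3.47 ± 0.11, 2.68 ± 0.12 and 1.46 ± 0.12). These 3 share 37.6% to 50.1% of their windows with near copies, so their split is uncertain. The basal keratin *Krt5* was at 1959.8, 2168 and 2223 CPM in *WT* and 2142, 2196 and 2140.0 CPM in *KD1* (log2 fold change 0.03 ± 0.08, edgeR adjusted p = 0.778). *Krt14* was at 1527 ± 90.7 CPM in *WT* and 1405 ± 15 CPM in *KD1* (edgeR adjusted p = 0.240) and the luminal keratin *Krt8* at 158 ± 21.5 CPM in *WT* and 177 ± 2.99 CPM in *KD1* (edgeR adjusted p = 0.147). *Krt79* fell from 9.47 ± 2.90 to 1.03 ± 0.131 CPM (log2 fold change -3.20 ± 0.24, edgeR adjusted p = 5.3e-08), and *Krt15*, with 7, 7 and 6 counts in *WT* and 3, 0 and 1 counts in *KD1*, was at least 2.66-fold lower. In all, 3 of 13 keratins tested were called higher and 2 lower.

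Of 46 junction genes tested, 10 were called higher and 1 lower. Tight junction genes led the rises. *Cldn4* was at 24.1, 20.5 and 21.5 CPM in *WT* and 638, 633 and 628 CPM in *KD1* (log2 fold change 4.85 ± 0.09, edgeR adjusted p = 6.3e-14). *Cldn1* rose from 3.13 ± 0.224 to 31.2 ± 0.802 CPM (log2 fold change 3.31 ± 0.12, edgeR adjusted p = 3.3e-11), *Ocln* rose from 11.6 ± 1.06 to 37.6 ± 1.49 CPM (log2 fold change 1.70 ± 0.09) and *Jam2* rose from 0.551 ± 0.136 to 7.96 ± 0.328 CPM (log2 fold change 3.87 ± 0.18). The single member called lower was *Cdh2*, which encodes N-cadherin, at 23.7, 24.2 and 24.4 CPM in *WT* and 0.295, 0.197 and 0.403 CPM in *KD1* (log2 fold change -6.32 ± 0.14, edgeR adjusted p = 1.5e-13). E-cadherin, *Cdh1*, was higher by the adjusted p alone (692 ± 33.6 CPM in *WT* and 896 ± 9.12 CPM in *KD1*; log2 fold change 0.37 ± 0.05), as was *Epcam* (log2 fold change 0.31 ± 0.07).

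Among genes of the epithelial to mesenchymal transition (EMT), more were called lower than higher. Of 24 tested, 7 were called lower and 1 higher, with a median of -0.01. *Vim*, the intermediate filament vimentin, was at 114, 158 and 165 CPM in *WT* and 18.8, 18.3 and 17.7 CPM in *KD1* (log2 fold change -2.99 ± 0.12, edgeR adjusted p = 1.0e-10). *Snai1* fell from 11.6 ± 3.36 to 3.55 ± 0.254 CPM (log2 fold change -1.72 ± 0.21, edgeR adjusted p = 8.4e-06). *Zeb1* was at 1.26 ± 0.0767 CPM in *WT* and 1.31 ± 0.136 CPM in *KD1* (edgeR adjusted p = 0.856). *Zeb2* was at 9.95 ± 1.41 CPM in *WT* and 9.46 ± 0.990 CPM in *KD1* (edgeR adjusted p = 0.690), and *Snai2* was lower by the adjusted p alone (log2 fold change -0.28 ± 0.08). *Cd44*, the hyaluronan receptor, was the member called higher (from 437 ± 8.10 to 1157 ± 13.4 CPM; log2 fold change 1.41 ± 0.06).

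Matrix genes changed in both directions. Of 61 tested, 13 were called higher and 22 lower, against 9.34% and 7.49% over all genes. Laminin chains of the epithelial basement membrane were among the members called higher. *Lama3* was at 77.3, 79.4 and 76.3 CPM in *WT* and 708, 729 and 717 CPM in *KD1* (log2 fold change 3.21 ± 0.05, edgeR adjusted p = 2.9e-14), and *Lamb3* rose from 187 ± 18.1 to 438 ± 6.71 CPM (log2 fold change 1.23 ± 0.07). *Itga2*, the α2 chain of a collagen and laminin receptor, was at 2.41, 1.20 and 1.66 CPM in *WT* and 241, 247 and 243 CPM in *KD1* (log2 fold change 7.15 ± 0.14, edgeR adjusted p = 6.3e-14). *Itgb4*, a subunit of the laminin receptor of hemidesmosomes, was at 2113 ± 109 CPM in *WT* and 1907 ± 20.1 CPM in *KD1* (edgeR adjusted p = 0.0702). *Tnc*, tenascin C, had the largest gain in CPM of all genes (from 1061 ± 69.6 to 3091 ± 9.90 CPM; log2 fold change 1.54 ± 0.05).

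The members called lower included fibronectin and fibrillar collagens. *Fn1*, the gene with the largest loss in CPM, was at 3473, 3102 and 2923 CPM in *WT* and 456, 453 and 462 CPM in *KD1* (log2 fold change -2.79 ± 0.07, edgeR adjusted p = 3.8e-13). *Col5a1* fell from 24.9 ± 0.464 to 0.192 ± 0.0968 CPM (log2 fold change -6.97 ± 0.21, edgeR adjusted p = 3.4e-12), *Col1a1* fell from 7.03 ± 1.56 to 0.571 ± 0.0991 CPM (log2 fold change -3.62 ± 0.23, edgeR adjusted p = 7.7e-09), and *Col3a1*, with 59, 80 and 59 counts in *WT* and 0, 1 and 0 counts in *KD1*, was at least 26-fold lower. The falls included 3 genes known from cartilage. *Acan*, the proteoglycan aggrecan, was at 133, 189 and 165 CPM in *WT* and 0.443, 0.550 and 0.282 CPM in *KD1* (log2 fold change -8.55 ± 0.19, edgeR adjusted p = 1.4e-13), *Cnmd*, chondromodulin, had 255, 461 and 383 counts in *WT* and 2, 1 and 1 counts in *KD1*, a fall of at least 144-fold, and *Col9a1* had 78, 118 and 92 counts in *WT* and 0, 1 and 0 counts in *KD1*, a fall of at least 37.8-fold. Markers of fibroblasts summed to 17 to 23 CPM in *WT* and 8.07 to 10.1 CPM in *KD1* over 8 markers, of which *Dcn*, *Lum* and *Thy1* had 3 counts or fewer in every culture. Nearly all of the *KD1* sum was *Pdgfra*, at 6.81, 8.72 and 8.35 CPM in *WT* and 9.45, 8.49 and 7.26 CPM in *KD1* (edgeR adjusted p = 0.618). The fall lay mostly in *Col1a1*, *Col1a2* and *Col3a1*, which are also on the matrix list. The part of these markers in the matrix result was not tested.

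Of 40 matrix proteases and inhibitors tested, 12 were called higher and 10 lower. *Timp3*, a matrix-bound inhibitor of metalloproteases, was at 1256, 1162 and 1100.5 CPM in *WT* and 135, 131 and 132 CPM in *KD1* (log2 fold change -3.15 ± 0.07, edgeR adjusted p = 1.0e-13), and *Timp1* was at 139 ± 6.45 CPM in *WT* and 137 ± 3.86 CPM in *KD1* (edgeR adjusted p = 0.847). *Mmp9* and *Mmp13* rose from 0.143 ± 0.121 to 3.58 ± 0.199 CPM and from 0.126 ± 0.0611 to 1.03 ± 0.282 CPM (log2 fold changes 4.50 ± 0.31 and 3.02 ± 0.39), *Mmp2* fell from 15.9 ± 1.76 to 4.02 ± 0.585 CPM (log2 fold change -1.99 ± 0.13), and *Serpinb2*, an inhibitor of plasminogen activators, rose from 6.53 ± 0.733 to 84.3 ± 4.53 CPM (log2 fold change 3.69 ± 0.10, edgeR adjusted p = 9.6e-13). *Adamts2* and *Adamts3*, which process procollagen, had no count in *KD1* and were at least 5.93-fold and 7.65-fold lower.

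**Figure D3:**
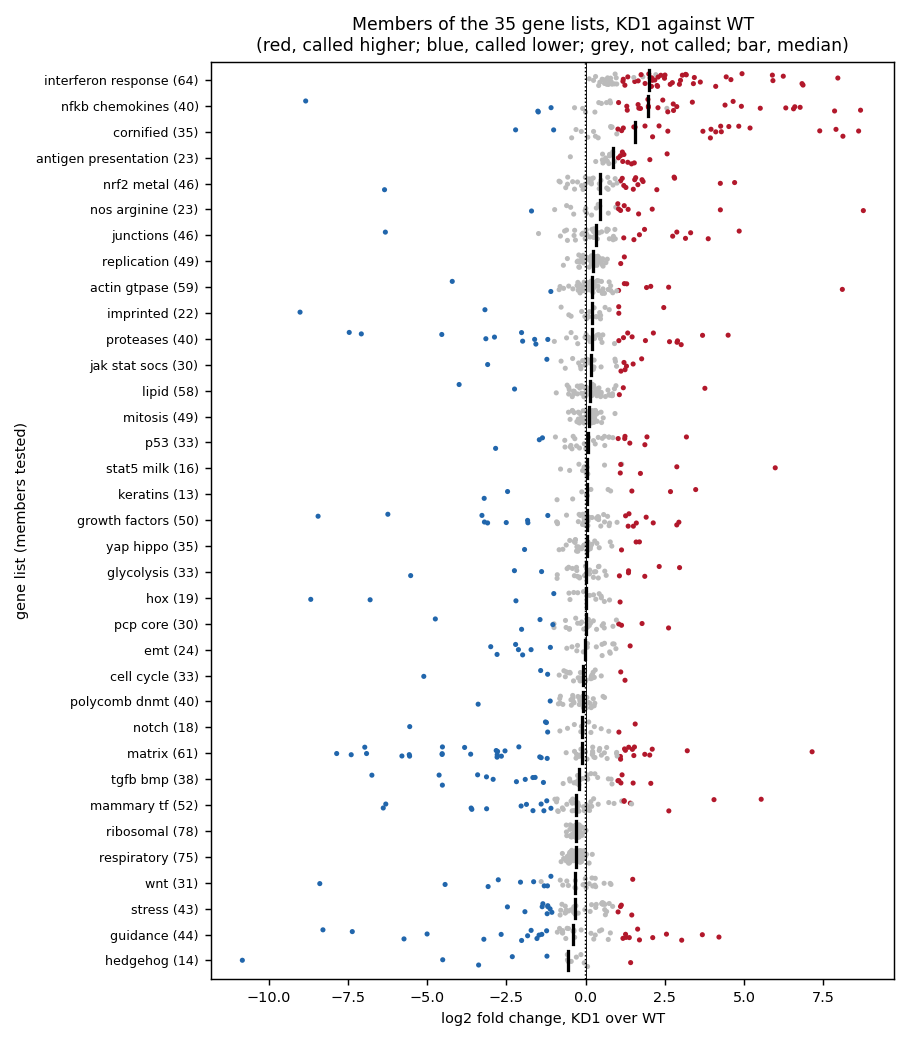
Log2 fold change of each tested member of the 35 gene lists, ordered by the median of the list, with the number tested beside its name. Red points were called higher, blue lower, grey were not called, black bars are medians and the dotted line is the median of all genes. Interferon, chemokine and cornified envelope lists lie to the right, with medians of 2.02, 1.97 and 1.56, and Hedgehog, guidance and stress lists to the left, with -0.56, -0.38 and -0.33.

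Transcription factors of mammary lineages were called lower more often than all genes were, and called higher at a share near that of all genes. Of 52 tested, 6 were called higher (11.5%) and 12 lower (23.1%), against 9.34% and 7.49% over all genes, with a median of -0.29. *Ehf*, an ETS factor of epithelia, was at 1.23, 1.12 and 1.56 CPM in *WT* and 60.0, 57.1 and 64.3 CPM in *KD1* (log2 fold change 5.54 ± 0.12, edgeR adjusted p = 1.4e-13). *Foxa1* and *Gata3*, factors of the hormone-sensing luminal lineage, rose from 0.174 ± 0.137 to 3.13 ± 0.115 CPM and from 43.6 ± 4.06 to 101 ± 2.74 CPM (log2 fold changes 4.05 ± 0.33 and 1.22 ± 0.07), while *Esr1*, the oestrogen receptor, was at 5.74 ± 0.552 CPM in *WT* and 4.86 ± 0.297 CPM in *KD1* (edgeR adjusted p = 0.137). *Foxa1* did not pass the filter on low counts through *WT*, so its direction may have been fixed by the filter. *Meis1* rose from 13.2 ± 0.564 to 81.7 ± 0.788 CPM (log2 fold change 2.63 ± 0.06, edgeR adjusted p = 4.1e-13). *Bcl11a*, with 120, 168 and 93 counts in *WT* and 2, 2 and 1 counts in *KD1*, was at least 49.8-fold lower, and its relative *Bcl11b*, with 97, 143 and 119 counts in *WT* and 2, 2 and 1 counts in *KD1*, at least 47.2-fold lower. *Runx2* fell from 139 ± 6.31 to 43.9 ± 1.18 CPM (log2 fold change -1.66 ± 0.06, edgeR adjusted p = 3.3e-11), and *Trp63*, a basal factor, was higher by the adjusted p alone (log2 fold change 0.73 ± 0.07).

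Of 19 Hox genes tested, 1 was called higher, *Hoxb4* (from 7.22 ± 0.384 to 15.4 ± 0.938 CPM; log2 fold change 1.09 ± 0.10), and 4 lower. *Hoxc9* had 25, 65 and 48 counts in *WT* and 0, 0 and 0 counts in *KD1*, a fall of at least 17.8-fold. Of 40 Polycomb and DNA methylation genes, none was called higher and 2 were called lower by edgeR, with 8 higher at an unadjusted p under 0.05 and 0 called higher by DESeq2. *Tet1*, which oxidises methylcytosine, fell from 9.54 ± 1.09 to 0.908 ± 0.0981 CPM (log2 fold change -3.39 ± 0.20, edgeR adjusted p = 3.5e-09), and *Dnmt3b* fell from 9.90 ± 0.573 to 4.56 ± 0.842 CPM (log2 fold change -1.12 ± 0.14, edgeR adjusted p = 9.1e-06). *Bmi1*, of Polycomb complex 1, was lower by the adjusted p and just under the fold limit (153, 140.5 and 148 CPM in *WT* and 82.3, 81.2 and 80.1 CPM in *KD1*; log2 fold change -0.86 ± 0.09, edgeR adjusted p = 1.6e-06), with 16.7% of its windows shared with another gene model. *Ezh2* was at 198 ± 9.15 CPM in *WT* and 218 ± 5.23 CPM in *KD1* (edgeR adjusted p = 0.0791). Of 22 imprinted genes tested, 3 were called higher and 2 lower, and *H19* had 29, 74 and 71 counts in *WT* and 0, 0 and 0 counts in *KD1*, a fall of at least 22.6-fold.

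Developmental signalling lists held more falls than rises. Of 31 Wnt genes tested, 9 were called lower and 1 higher, with a median of -0.32. The members called lower included antagonists of the pathway. *Nkd2*, an inhibitor of Dishevelled, was at 367, 421 and 407 CPM in *WT* and 18.6, 18.4 and 18.3 CPM in *KD1* (log2 fold change -4.43 ± 0.08, edgeR adjusted p = 3.1e-14). *Sostdc1*, an antagonist of Wnt and BMP, had 442, 791 and 584 counts in *WT* and 2, 3 and 1 counts in *KD1*, a fall of at least 237-fold. *Tcf7*, a nuclear factor of the pathway, fell from 23.9 ± 3.83 to 2.84 ± 0.144 CPM (log2 fold change -3.07 ± 0.13, edgeR adjusted p = 1.0e-10), and the receptor *Fzd5* was the member called higher (from 11.1 ± 0.660 to 31.3 ± 0.328 CPM; log2 fold change 1.49 ± 0.10). *Axin2*, a general target of the pathway, was not tested, at 3, 6 and 3 counts in *WT* and 3, 4 and 4 counts in *KD1*.

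Of 14 Hedgehog genes, 5 were called lower and 1 higher, with a median of -0.56. *Hhip*, which binds Hedgehog ligands and is a target of the pathway, had 194, 229 and 187 counts in *WT* and 0, 0 and 0 counts in *KD1*, a fall of at least 80.7-fold. *Gli1*, the factor whose transcription reports pathway activity, was at 26.2, 28.1 and 25.3 CPM in *WT* and 2.84, 2.63 and 2.18 CPM in *KD1* (log2 fold change -3.37 ± 0.12, edgeR adjusted p = 2.2e-11), and the co-receptor *Gas1* fell from 45.7 ± 3.65 to 2.01 ± 0.332 CPM (log2 fold change -4.51 ± 0.11, edgeR adjusted p = 4.2e-13). The receptor *Ptch1* was at 70.9 ± 4.85 CPM in *WT* and 64 ± 0.213 CPM in *KD1* (edgeR adjusted p = 0.0746), and *Smo* was at 218 ± 9.12 CPM in *WT* and 212 ± 5.93 CPM in *KD1* (edgeR adjusted p = 0.563).

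Of 38 genes of TGF-β and BMP signalling, 6 were called higher and 11 lower. On the TGF-β and activin side, *Tgfb1* and *Inhba* rose from 36.2 ± 3.93 to 103 ± 3.45 CPM and from 287 ± 30.8 to 637 ± 16.2 CPM (log2 fold changes 1.50 ± 0.08 and 1.15 ± 0.10), as did the activin inhibitor *Fst* (from 11.6 ± 0.749 to 48.4 ± 0.826 CPM; log2 fold change 2.06 ± 0.10). On the BMP side, *Bmp7* had 114, 154 and 128 counts in *WT* and 0, 2 and 2 counts in *KD1*, a fall of at least 52.2-fold, the antagonist *Nog* was at least 16.2-fold lower, and *Id4*, a target, fell from 204 ± 15.4 to 8.29 ± 0.816 CPM (log2 fold change -4.62 ± 0.10, edgeR adjusted p = 1.1e-13). *Id1* was at 111 ± 22.7 CPM in *WT* and 91.4 ± 5.65 CPM in *KD1* (log2 fold change -0.28 ± 0.13, edgeR adjusted p = 0.0858), and without *WT* replicate 1 its log2 fold change was -0.44 (edgeR adjusted p = 0.00385).

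Of 18 Notch genes, 2 were called higher and 4 lower, and with the replicate block, or without *WT* replicate 1 or 3 or *KD1* replicate 1 or 3, 1 was called higher. The receptor *Notch1* fell from 157 ± 10.5 to 66.9 ± 3.39 CPM (log2 fold change -1.23 ± 0.07, edgeR adjusted p = 2.9e-09), and its targets *Hes1* and *Hey1* fell from 125 ± 17.3 to 54.5 ± 3.65 CPM and from 19.6 ± 2.08 to 0.413 ± 0.134 CPM (log2 fold changes -1.20 ± 0.10 and -5.55 ± 0.18). The ligand *Jag1* was at 274 ± 31.9 CPM in *WT* and 308 ± 6.99 CPM in *KD1* (edgeR adjusted p = 0.0678).

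Growth factor genes were balanced, with 9 called higher and 9 lower of 50 tested. The binding proteins of insulin-like growth factors moved apart. *Igfbp3* was at 139, 146 and 141 CPM in *WT* and 1043, 1082 and 1006 CPM in *KD1* (log2 fold change 2.88 ± 0.06, edgeR adjusted p = 1.3e-13), *Igfbp5* fell from 1979 ± 159 to 557 ± 4.97 CPM (log2 fold change -1.83 ± 0.06, edgeR adjusted p = 1.0e-11), and *Igfbp2* had 34, 53 and 30 counts in *WT* and 0, 0 and 0 counts in *KD1*, a fall of at least 15.2-fold. *Hbegf*, a ligand of the EGF receptor, rose from 30.0 ± 0.944 to 132 ± 2.98 CPM (log2 fold change 2.14 ± 0.06, edgeR adjusted p = 1.7e-12), while *Egfr* was at 90.1 ± 3.19 CPM in *WT* and 85 ± 2.70 CPM in *KD1* (edgeR adjusted p = 0.447). *Fgfr2*, the FGF receptor of mammary epithelium, fell from 27.6 ± 3.39 to 3.01 ± 0.504 CPM (log2 fold change -3.19 ± 0.13, edgeR adjusted p = 5.6e-11), and *Fgf13*, an intracellular member of the FGF family, fell from 35.3 ± 1.25 to 0.131 ± 0.0494 CPM (log2 fold change -8.04 ± 0.18).

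Guidance genes included some of the largest falls. Of 44 tested, 11 were called higher and 13 lower, with a median of -0.38. *Sema3d* was at 312, 325 and 310.2 CPM in *WT* and 5.43, 6.57 and 5.89 CPM in *KD1* (log2 fold change -5.73 ± 0.14, edgeR adjusted p = 5.6e-13). *Slit2*, and its receptor *Robo1*, fell from 48.1 ± 3.06 to 5.20 ± 0.349 CPM and from 12.3 ± 1.91 to 3.48 ± 0.165 CPM (log2 fold changes -3.21 ± 0.09 and -1.83 ± 0.13). *Ntn1*, netrin 1, rose from 0.362 ± 0.175 to 6.63 ± 0.235 CPM (log2 fold change 4.21 ± 0.20, edgeR adjusted p = 5.2e-10), and its receptors *Unc5b* and *Unc5c* fell, from 221 ± 21.8 to 79.9 ± 1.48 CPM (log2 fold change -1.47 ± 0.08) and with 122, 190 and 159 counts in *WT* and 0, 1 and 2 counts in *KD1*. *Epha2* rose from 196 ± 13.7 to 509.9 ± 10.0 CPM (log2 fold change 1.38 ± 0.07, edgeR adjusted p = 8.5e-10).

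Several of the largest changes lay side by side on a chromosome. The blocks below were chosen after the values had been seen, so their counts are a description. On chromosome 14, between 56082166 and 56262260 of GRCm38, 9 annotated coding genes run from *Mcpt8* to *Gzmb*. The 7 that were tested, all serine proteases known from cytotoxic lymphocytes and mast cells, were called lower. *Gzmc* had 284, 356 and 312 counts in *WT* and 0, 2 and 1 counts in *KD1*, *Gzmb* 62, 75 and 74 counts in *WT* and 0, 1 and 0 counts in *KD1*, and *Mcpt8* 72, 70 and 82 counts in *WT* and 1, 0 and 1 counts in *KD1*, and *Ctsg* and *Gzmn* within the block had no count in either line. *Gzmd*, *Gzme* and *Gzmg* share 19.8% to 21.9% of their windows with each other.

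On chromosome 13 lies the prolactin family, hormones known mainly from placenta. Of 23 coding genes from *Prl* to *Prl5a1*, between 27057570 and 28151611, 5 were tested and called higher. *Prl7d1*, at 7, 4 and 3 counts in *WT* and 20, 6 and 21 counts in *KD1*, did not pass the filter on low counts through *KD1* alone. The other members passed it through their *KD1* counts, so their direction was fixed by the filter and only their counts are given. The same held for *Sprr2d*, *Sprr2e*, *Sprr2f*, *Sprr2a1*, *Sprr2a2*, *Il1f6* and *Il1f9*. The granzyme genes were low in *KD1* and passed the filter through their *WT* and *KD2* counts. In *KD2*, *Gzmc* was at 18.3 CPM and *Gzmb* at 0.752 CPM. *Prl2a1* had 1, 0 and 0 counts in *WT* and 315, 291 and 318 counts in *KD1*, *Prl8a9* 4, 1 and 2 counts in *WT* and 385, 375 and 361 counts in *KD1*, and *Prl7b1* 1, 0 and 0 counts in *WT* and 82, 79 and 84 counts in *KD1*. Prolactin itself, *Prl*, had 0, 0 and 4 counts in *WT* and 0, 2 and 4 counts in *KD1*. Outside this block on the same chromosome, the proliferin genes *Prl2c3*, *Prl2c2* and *Prl2c5* rose, *Prl2c3* with 12.3, 11.8 and 12.3 CPM in *WT* and 304, 317 and 302 CPM in *KD1* (log2 fold change 4.67 ± 0.07, edgeR adjusted p = 2.1e-14). They share 35.1% to 83.3% of their windows, so the split among the 3 is uncertain.

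On chromosome 3, 16 annotated genes of the small proline-rich block run from 92215799 to 92500493, and of the 11 tested 10 were called higher. For *Sprr2d*, *Sprr2e*, *Sprr2f*, *Sprr2a1* and *Sprr2a2* that direction was fixed by the filter. *Sprr2h* had 43, 51 and 48 counts in *WT* and 2242, 2024 and 1920 counts in *KD1*, *Sprr2e* 0, 1 and 0 counts in *WT* and 241, 170 and 212 counts in *KD1*, and *Sprr1a* 142, 300 and 258 counts in *WT* and 1120, 947 and 968 counts in *KD1*. *Sprr2a1* and *Sprr2a2* share over 96% of their windows. On the same chromosome, between 142493978 and 142638008, 4 of 5 guanylate-binding genes were called higher, with *Gbp2* at 51, 74 and 60 counts in *WT* and 606, 582 and 567 counts in *KD1*. On chromosome 2, the interleukin 36 genes *Il1f6* and *Il1f9* had 1, 0 and 0 counts in *WT* and 226, 182 and 207 counts in *KD1*, and 0, 0 and 0 counts in *WT* and 118, 100 and 113 counts in *KD1*. The antagonist *Il1rn* next to them rose too, at 109, 136 and 126 counts in *WT* and 525, 460 and 485 counts in *KD1*, and the neighbouring *Il1f10* had no count.

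**Figure D4:**
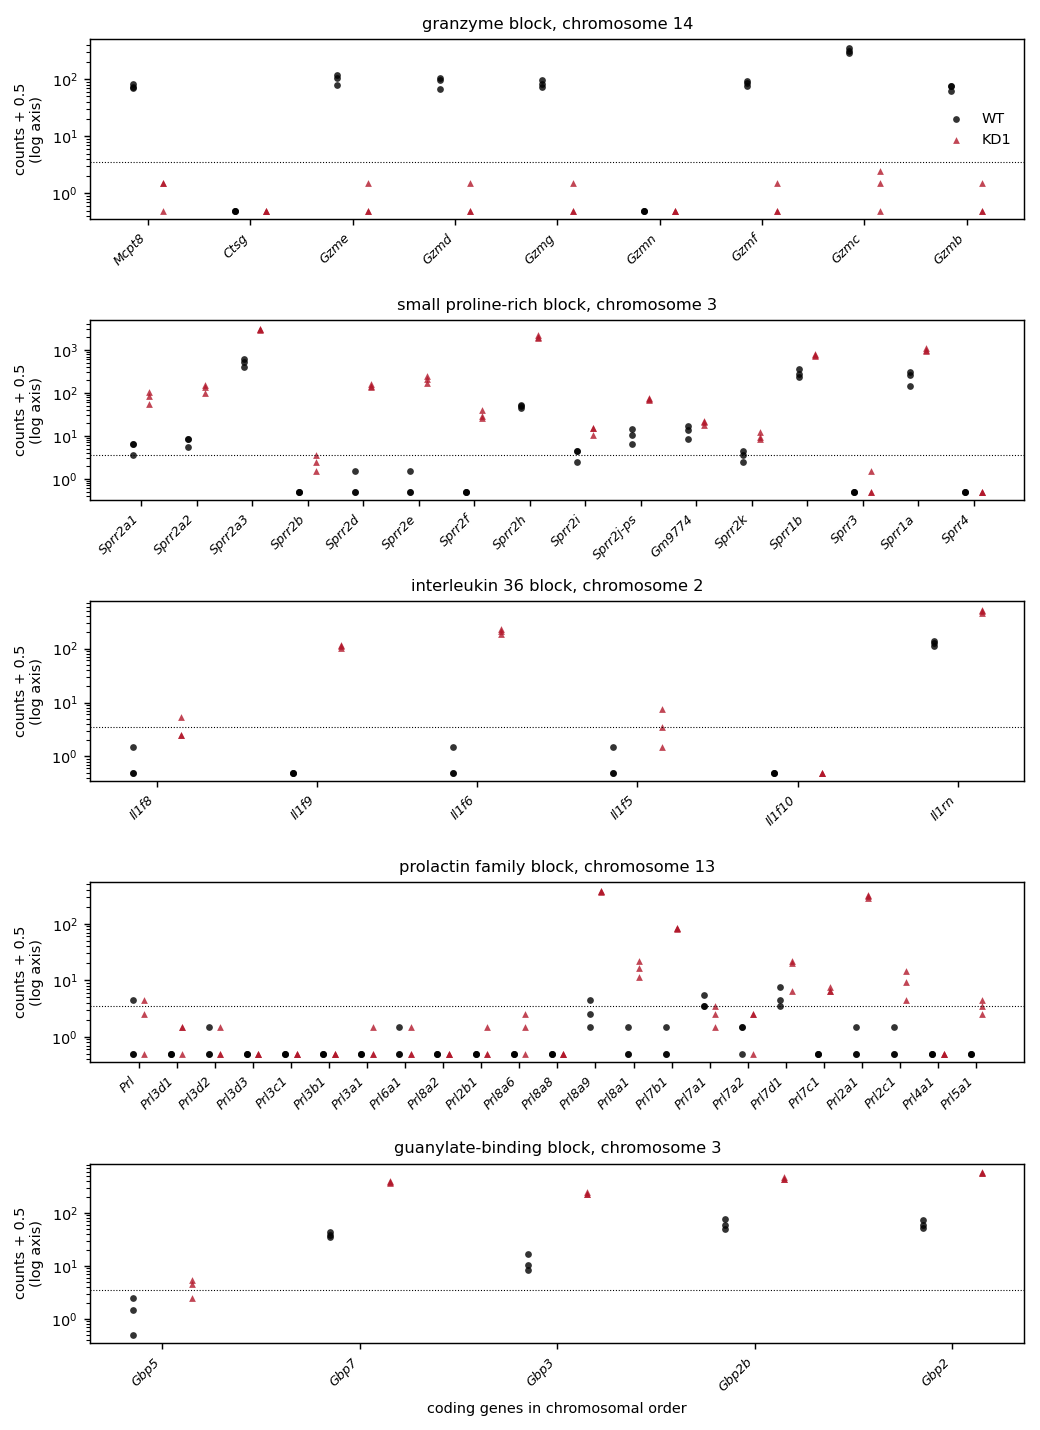
Counts plus 0.5 in each culture, on a log axis, for the annotated coding genes of 5 chromosomal blocks in their order along the chromosome. Black circles are *WT*, red triangles *KD1*, and the dotted line marks 3 counts. In the granzyme block every expressed gene falls under the line in *KD1*, whereas in the prolactin family block *Prl7b1* and *Prl2a1* stand above it only in *KD1*.

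By counts alone, 152 genes were at 3 counts or fewer in every *WT* culture and at 10 or more in every *KD1* culture, of which 103 were coding and 3 passed 10 CPM. In the other direction, 122 genes were lost, of which 108 were coding and 9 passed 10 CPM. The gained genes with the highest levels were the pseudogene *Gm7897*, the nucleoside transporter *Slc28a3* (1, 1 and 1 counts in *WT* and 447, 411 and 420 counts in *KD1*) and *Prl2a1*. Others among the 15 largest rises were the breast tumour kinase *Ptk6* (0, 0 and 1 counts in *WT* and 187, 169 and 180 counts in *KD1*), the sugar carrier *Slc5a4b* (0, 0 and 0 counts in *WT* and 167, 159 and 185 counts in *KD1*) and *Tmigd1* (0, 0 and 0 counts in *WT* and 131, 112 and 122 counts in *KD1*). *Slc6a14*, an amino acid transporter, and *Clic5*, a chloride channel protein, rose to higher levels (from 0.312 ± 0.283 to 81 ± 7.42 CPM and from 0.225 ± 0.122 to 60.6 ± 2.83 CPM).

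The lost genes with the highest levels were *Rtl3*, derived from a retrotransposon (573, 647 and 571 counts in *WT* and 3, 2 and 1 counts in *KD1*), *Sostdc1*, *Cnmd*, *Tmem47* (300, 383 and 315 counts in *WT* and 0, 2 and 2 counts in *KD1*) and the homeobox gene *Barx2* (239, 377 and 343 counts in *WT* and 1, 3 and 2 counts in *KD1*). *Itm2a*, at 49.6, 43.5 and 48.4 CPM in *WT* and 0.148, 0.118 and 0.0403 CPM in *KD1* (log2 fold change -8.76 ± 0.18, edgeR adjusted p = 9.1e-14), and the adhesion genes *Sdk2* and *Tenm3*, at least 117-fold and 112-fold lower, were among the 15 largest falls. The model *Gm14023*, which overlaps *Il1a* on the other strand, rose too (from 0.314 ± 0.122 to 7.20 ± 0.788 CPM), and reads of the pair cannot be told apart without strand.

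Few mitosis and replication genes passed the fold limit, against 9.34% called higher and 7.49% called lower over all genes. Of 49 mitosis genes tested, edgeR called none at the fold limit, with a median of 0.11, 19 higher and 11 lower by the adjusted p alone, and 20 and 11 at an unadjusted p under 0.05. DESeq2 called 0 in either direction, and *Mki67* was at 847 ± 64.3 CPM in *WT* and 869 ± 22.7 CPM in *KD1* (edgeR adjusted p = 0.726). Of 49 replication genes, 2 were called higher, *Orc1* and *Cdc6* (log2 fold changes 1.22 ± 0.07 and 1.11 ± 0.07), and 0 lower, with 9 lower at an unadjusted p under 0.05 in edgeR and 0 called lower by DESeq2. Of 33 cyclin, kinase and MYC family genes, 2 were called higher (6.06%) and 3 lower (9.09%), near the shares over all genes. *Ccnd1*, cyclin D1, was at 697, 727 and 724 CPM in *WT* and 1546, 1587 and 1501 CPM in *KD1* (log2 fold change 1.11 ± 0.05, edgeR adjusted p = 2.2e-10), and *Cdkn1a*, the inhibitor p21, rose from 53.2 ± 1.43 to 126 ± 5.11 CPM (log2 fold change 1.24 ± 0.06, edgeR adjusted p = 7.6e-10). *E2f2* fell from 74.1 ± 5.05 to 27.8 ± 0.661 CPM (log2 fold change -1.42 ± 0.07). Of 33 genes of the p53 list, 7 were called higher (21.2%) and 3 lower (9.09%). *Fas* and *Cd82* rose from 0.916 ± 0.232 to 8.41 ± 0.949 CPM and from 41.5 ± 1.48 to 152 ± 4.04 CPM (log2 fold changes 3.18 ± 0.18 and 1.87 ± 0.06), *Bbc3*, which encodes the death protein PUMA, fell from 10.4 ± 1.23 to 3.75 ± 0.418 CPM (log2 fold change -1.46 ± 0.17), and *Trp53* was at 228 ± 7.37 CPM in *WT* and 233 ± 4.54 CPM in *KD1* (edgeR adjusted p = 0.675).

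Detoxifying enzymes rose more often than they fell. Of 46 NRF2 target, glutathione and aldo-keto reductase genes tested, 15 were called higher and 1 lower, with a median of 0.46. *Gsta4* rose from 11.6 ± 1.84 to 34.7 ± 1.71 CPM (log2 fold change 1.58 ± 0.10, edgeR adjusted p = 5.5e-09), *Mgst2* rose from 1.45 ± 0.219 to 10.1 ± 1.20 CPM (log2 fold change 2.81 ± 0.16, edgeR adjusted p = 2.7e-09) and *Nqo1* rose from 1.91 ± 0.421 to 5.66 ± 0.442 CPM (log2 fold change 1.55 ± 0.15, edgeR adjusted p = 1.0e-06). *Akr1c18*, which inactivates progesterone, was the member called lower (from 11.9 ± 2.12 to 0.142 ± 0.0557 CPM; log2 fold change -6.34 ± 0.29). It was low in *KD2* too and passed the filter on low counts through *WT* alone, so its direction was fixed by the filter. *Nfe2l2*, which encodes NRF2, was at 94.7 ± 3.54 CPM in *WT* and 102 ± 4.41 CPM in *KD1* (edgeR adjusted p = 0.187), and the catalytic and modifier chains of glutamate-cysteine ligase moved apart by the adjusted p alone (*Gclc* -0.80 ± 0.06, *Gclm* 0.87 ± 0.06).

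Stress genes were called lower more often than all genes were, and called higher about as often. Of 43 genes tested, 4 were called higher (9.3%) and 9 lower (20.9%), against 9.34% and 7.49% over all genes, with a median of -0.33. The members called higher, *Xbp1*, *Manf*, *Sdf2l1* and *Creld2*, are known from the response to unfolded protein in the endoplasmic reticulum. *Xbp1* rose from 38 ± 2.54 to 105 ± 0.672 CPM and *Manf* from 67.8 ± 7.08 to 148 ± 5.06 CPM (log2 fold changes 1.46 ± 0.06 and 1.13 ± 0.08), and *Hspa5* was higher by the adjusted p alone (log2 fold change 0.66 ± 0.05). The members called lower included targets of ATF4 in the integrated stress response. *Ddit3* fell from 71.1 ± 5.89 to 27.9 ± 1.03 CPM (log2 fold change -1.35 ± 0.09, edgeR adjusted p = 1.9e-08), *Trib3* fell from 254 ± 7.30 to 98.3 ± 2.90 CPM (log2 fold change -1.37 ± 0.07, edgeR adjusted p = 1.2e-09), and the leucine carrier *Slc7a5* was at 1423, 1294 and 1315 CPM in *WT* and 355, 359 and 356 CPM in *KD1* (log2 fold change -1.91 ± 0.06, edgeR adjusted p = 6.4e-12). *Atf4* itself was lower by the adjusted p alone (log2 fold change -0.39 ± 0.06).

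In carbon metabolism, 6 of 33 glucose genes were called higher and 3 lower. The regulatory enzymes *Pdk4* and *Pfkfb4* rose from 0.531 ± 0.128 to 4.23 ± 0.252 CPM and from 2.02 ± 0.232 to 10.1 ± 1.15 CPM (log2 fold changes 2.97 ± 0.23 and 2.32 ± 0.14), *Fbp2* of gluconeogenesis fell from 20.8 ± 4.17 to 4.41 ± 0.120 CPM (log2 fold change -2.24 ± 0.14), and *Ldha* was at 897 ± 29.3 CPM in *WT* and 895 ± 19.4 CPM in *KD1* (edgeR adjusted p = 0.971). Of 58 lipid genes, 3 were called higher and 2 lower. *Fasn*, the fatty acid synthase, was under the fold limit with one of the 5 largest gains in CPM (1188 ± 82.6 CPM in *WT* and 2309.6 ± 8.83 CPM in *KD1*; log2 fold change 0.96 ± 0.06, edgeR adjusted p = 6.4e-09).

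Respiratory chain and ribosomal protein genes shifted down by small steps. Of 75 nuclear respiratory genes, edgeR called none in either direction at the fold limit, and 52 passed the adjusted p as lower and 0 as higher, against 30% and 26.9% of all genes. Of 78 ribosomal protein genes, none was called, and 59 passed as lower and 0 as higher. At an unadjusted p under 0.05, 55 respiratory and 65 ribosomal genes were lower and 0 higher in edgeR, and DESeq2 called 0 of either list. Both medians were -0.30. *Cox4i1* was at 370.1 ± 11.8 CPM in *WT* and 223 ± 3.75 CPM in *KD1* (log2 fold change -0.73 ± 0.11, edgeR adjusted p = 5.4e-05) and *Rps6* at 356 ± 17.6 CPM in *WT* and 271 ± 4.91 CPM in *KD1* (log2 fold change -0.40 ± 0.07, edgeR adjusted p = 1.4e-04). The share of counts in ribosomal protein genes was 2.49% to 2.77% in *WT* and 2.11% to 2.15% in *KD1*. All mitochondrially encoded genes stood at 0 in every culture, so that side of the chain was not measured.

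Of 59 actin, myosin and small GTPase genes, 7 were called higher and 2 lower. *Cdc42ep5*, an effector of CDC42, rose from 0.558 ± 0.151 to 3.44 ± 0.577 CPM (log2 fold change 2.62 ± 0.24), *Arhgap24* fell from 4.41 ± 0.596 to 0.232 ± 0.0320 CPM (log2 fold change -4.21 ± 0.21, edgeR adjusted p = 6.0e-10), and *Myh9* was at 1088 ± 59.3 CPM in *WT* and 1031 ± 4.46 CPM in *KD1* (edgeR adjusted p = 0.282). Of 35 Hippo genes, 3 were called higher and 1 lower. The targets *Ccn1* and *Ccn2* differed in sign, *Ccn1* rising from 66.8 ± 7.84 to 202 ± 5.06 CPM (log2 fold change 1.60 ± 0.08, edgeR adjusted p = 5.8e-10) and *Ccn2* lower by the adjusted p alone (log2 fold change -0.83 ± 0.08).

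Chromosomes were compared as a whole because *KD1* is 1 clone. The median log2 fold change of the genes tested ran from -0.27 on chromosome 8 to 0.15 on chromosome 11, beside -0.03 for all genes. The interquartile range on chromosome 8 spanned -0.61 to 0.12 and on chromosome 11 -0.13 to 0.51. These ranges describe single genes, and the medians were not tested.

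**Figure D5:**
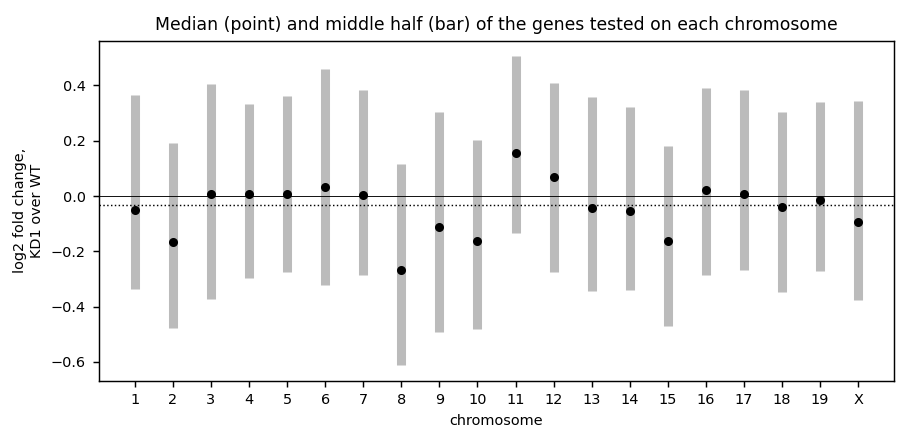
Median (point) and interquartile range (bar) of the log2 fold changes of the genes tested on each chromosome, with the median of all genes as a dotted line. Chromosome 8 lies lowest, at -0.27, and chromosome 11 highest, at 0.15.

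*KD1* was also compared directly with the second edited clone. Between *KD1* and *KD2* directly, 23.3% of the genes tested were called in either direction. Of the 30 named genes with the largest changes from *WT*, 27 were also called in the same direction against *KD2*, the others being *Sdk2*, *Sostdc1* and *Tmem47*. These genes were chosen for their *KD1* values, which enter both tests, so that count is a description. *Csf3* was at 2.47 ± 0.840 CPM in *KD2*, a log2 difference between the clones of 7.89 ± 0.17 (edgeR adjusted p = 5.8e-14). *Nos2* was at 9.88 ± 0.970 CPM in *KD2*, above each *WT* culture and below each *KD1* culture (log2 difference 4.11 ± 0.07, edgeR adjusted p = 1.5e-14). *Cldn4* was at 19.1 ± 2.66 CPM in *KD2* (log2 difference 5.06 ± 0.09) and *Ehf* at 1.92 ± 0.306 CPM (log2 difference 4.97 ± 0.11).

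Some rises over *WT* were shared by *KD2*. *C3* was called higher there too, at 1046 ± 95.3 CPM, and *Ifih1* was at 41.1 CPM in *KD2* and 6.36 CPM in *WT*. How many members of the interferon list *KD2* shared was not counted here. Interferon and antigen presentation genes differed between the clones in both directions. *Oasl1* and *Ifit1* were lower in *KD2*, at 1.05 ± 0.168 CPM and 6.83 ± 1.55 CPM (log2 differences 6.82 ± 0.12 and 2.32 ± 0.12), *Irf1* was at 91.4 ± 8.19 CPM (log2 difference 0.05 ± 0.07, edgeR adjusted p = 0.480), and *H2-D1* was higher in *KD2*, at 55.8 ± 6.55 CPM, than in *KD1* (log2 difference -2.69 ± 0.09). *Stat5a* was at 30.0 ± 2.82 CPM in *KD2*, higher than in *KD1* (log2 difference *KD1* over *KD2* -1.01 ± 0.09, edgeR adjusted p = 1.8e-07), and *Prlr* was at 7.77 ± 2.05 CPM, lower than in *KD1* (log2 difference 2.33 ± 0.13).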

How the data were processed

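Per the methods of the study, total RNA of cells grown to near confluence was made into libraries with a kit that is not described as marking strand, and reads were trimmed with fastp, mapped to GRCm38 with HISAT2 and counted over exons with featureCounts. Versions are not given in the sources used here. The labels state that samples were flash frozen, which the methods state they were not. The deposited table holds raw counts per gene, which the authors did not normalise.

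From these counts, edgeR 4.0.16 in R 4.3.3 fitted 1 quasi-likelihood model to all 9 cultures, with TMM scaling, its default filter on low counts and no block, and p-values were adjusted by Benjamini-Hochberg over 15253 genes. Groups came from the sample titles. On counts simulated from these libraries, the same steps were tested on genes of known fold change. DESeq2 1.42.0, median-of-ratios scaling, no filter, a minimum of 10 counts in every culture, the 6 cultures alone, counts thinned to the smallest library, a replicate block and leaving out each culture were the alternatives. Gene symbols were matched to a GRCm38 annotation, 53569 directly and 140 by an older name, and 1519 were not matched. Reads of overlapping or antisense genes cannot be separated, and near copies were marked by the share of 50-base windows of exon sequence that another gene also holds. Promoters came from RefSeq. Some genes of the lists are not reported here by name.

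The culture groups compared, the gene lists and the marker lists were chosen with earlier results of these data known, so lists are described by counts and medians without a test. Genes named are *Vangl2*, the 15 largest rises and 15 largest falls among called genes whose cultures did not overlap and whose mean level was over 1 on the log2 CPM scale (at most 3 gene models among them), preset key members and the 3 most changed called members of each list in each direction, the 5 switched genes of highest level and the 5 largest CPM differences in each direction. Others are said to have been chosen after their values were seen, and these include the sensors, receptors, NF-κB subunits, interferon genes and chromosomal blocks. Depth was 20030410 to 27896032 counts over the 6 cultures, and intervals cover the spread between cultures of 1 clone.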

Additional observations from a re-analysis of the deposited data

Results flagged for a closer look

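In 31 of 247 genes named in the text, *KD1* and *KD2* were called in opposite directions against the same *WT* cultures, and the direct test of *KD1* against *KD2* passed the edgeR threshold in each. The named genes were chosen mostly for a change in *KD1*, so this count does not say how common such genes are. *Sprr2a1*, *Sprr2a2* and *Sprr2g* did not pass the filter on low counts through *WT* or *KD2*, so for them the direct test is no support. The values in parentheses are the log2 difference *KD1* over *KD2*. Genes lower in *KD1* than in *WT* and higher in *KD2* were the matrix and mesenchymal genes *Fn1* (-4.26), *Col5a1* (-8.53), *Col9a1* (-9.43), *Cdh2* (-9.10), *Vim* (-5.90) and *Snai1* (-3.08), and also *Ptx3* (-10.65), *Cxcl12* (-5.14), *Ccl20* (-2.72), *Fat4* (-7.52), *Fbp2* (-3.81) and *Arhgap24* (-6.30). Genes higher in *KD1* than in *WT* and lower in *KD2* were the envelope genes *Tgm1* (6.0), *Ivl* (7.67), *Sprr1a* (3.84), *Sprr2a1* (9.21), *Sprr2a2* (9.93), *Sprr2g* (9.09) and *Sprr2h* (9.04), the keratin, junction and basement membrane genes *Krt6a* (5.60), *Krt6b* (4.58), *Krt16* (3.28), *Gjb2* (7.03), *Itga2* (8.56) and *Lama3* (4.69), and *Il1a* (7.85), *Inhba* (2.79), *Serpinb2* (7.33), *Arg1* (2.47), *Pdk4* (6.55) and *Prl2c5* (4.18). *Fn1*, for example, was at 8763 ± 508 CPM in *KD2*, *Vim* at 1092 ± 98.7 CPM, *Il1a* at 4.46 ± 0.353 CPM and *Krt6a* at 8.41 ± 1.08 CPM. Where a clone held 3 counts or fewer, as *KD1* did for *Ptx3* and *Col9a1*, the size of the fitted difference depends on the model. The 2 clones share their control cultures, and a clone effect and a guide effect cannot be told apart with 1 clone for each guide.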

How the results depend on the processing

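The calls of higher and lower genes stayed within 1.5 times of 1425 and 1143 under every alternative but one. Restricting the test to genes that reached 10 counts in each culture gave 766 higher and 553 lower, because fewer genes were tested, and left 1 of the 27 named genes that differed between *KD1* and *KD2*. Without a filter the counts were 1906 and 1424, and leaving out single cultures gave 1414 to 1503 higher and 1112 to 1153 lower. Thinning to the smallest library moved *Vangl2* to a log2 fold change of -0.47 (edgeR adjusted p = 0.0625), and leaving out single cultures gave -0.72 to -0.47. Replicate numbers did not pair the cultures, with correlations of same-numbered deviations from -0.065 to 0.079, and with the replicate block 1424 genes were higher, 1136 lower, *Vangl2* was at -0.64 and 27 named genes differed between the clones. Of 3106 values of single genes, 3047 kept their direction and side of the adjusted p threshold. The exceptions beside changes of sign were *Elf5*, *Ezh2*, *Id1*, *Itgb4*, *Jag1*, *Krt8*, *Nfe2l2*, *Socs2* and *Stat5b*, which passed the adjusted p in one or more alternatives, and *Ccl20* and *Snai2*, which lost it. Without *WT* replicate 1 the interferon, chemokine and cornified envelope lists had 40, 25 and 22 members called higher, while 1 Notch gene was called higher and 1 lipid gene lower in place of 2 each. Of 910 counts of list members called, 54 moved by over 1.5 times, 23 of them with at least 10 counts in each culture. Among these, 1 Notch gene was called higher in 10 alternatives and 1 cornified envelope gene lower in 8, in place of 2 each. Of 495 medians of lists and chromosomes 228 moved, by up to 0.796 with at least 10 counts in each culture and by up to 0.322 otherwise. The sign turned only for genes near 0. The log2 fold change of *Ldha* was -0.0032, and 0.020 with median-of-ratios factors, 0.020 with DESeq2, 0.0060 with no filter, 0.032 with at least 10 counts, 0.038 with the 6 cultures alone and 0.020 with thinned counts, with -0.027 to 0.042 when single cultures were left out. The log2 fold change of *Timp1* was -0.017, and 0.0060 with median-of-ratios factors, 0.0060 with DESeq2, 0.018 with at least 10 counts, 0.024 with the 6 cultures alone and 0.0058 with thinned counts, with -0.041 to 0.044 when single cultures were left out. For *Krt5* it was 0.029, with -0.023 to 0.088 when single cultures were left out. For *Mki67* it was 0.037, with -0.0033 to 0.12 when single cultures were left out. For *Smo* it was -0.043, with -0.068 to 0.011 when single cultures were left out. For *Zeb1* it was 0.052, with -0.020 to 0.13 when single cultures were left out. For *Zeb2* it was -0.071, with -0.16 to 0.0019 when single cultures were left out. The cause was not tested. Depth limits genes near 3 counts, for which folds are lower bounds.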
